A study of Mus musculus with 6 samples.

Results

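The insulin-like growth factor genes Igf2 and Igf1, their receptors and adaptors, and the imprinted noncoding RNAs that lie beside them were examined in mouse haematopoietic stem cells (HSCs). The 10 genes were Igf2, H19, Igf2r, Airn, Igf1r, Igf1, Grb10, Insr, Irs1 and Irs2. Every probe set that the platform table assigned to exactly 1 of these symbols was taken, and the probe set that names H19 together with its microRNA gene Mir675 was added. This gave 27 of the 45101 probe sets on the array. There were 3 arrays of HSCs labelled Lrg-47-/- (Irgm1-/-, lacking an interferon-induced GTPase of the immunity-related family) and 3 arrays of HSCs of wild-type mice. The labels give every mouse as C57BL/6, aged 8 to 12 weeks and kept free of specific pathogens, and they state neither the sex nor how many animals stand behind an array. Bone marrow cells were sorted on the Hoechst side population together with Sca-1, c-kit and lineage staining, and their RNA was amplified in 2 rounds. Values are log2 expression values per probe set.

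Igf2 is a growth factor that is most active before birth, and it is expressed from the paternal chromosome. The neighbouring noncoding RNA H19 is expressed from the maternal one, under a shared imprinting control region. The growth signal is carried by the tyrosine kinase receptor Igf1r and by the insulin receptor Insr, through the docking proteins Irs1 and Irs2, and is restrained by the adaptor Grb10. Igf2r carries mannose 6-phosphate-tagged enzymes to lysosomes and also takes up Igf2 for degradation. In the mouse Igf2r is expressed mainly from the maternal allele, and the paternal antisense RNA Airn silences it in cis. In mouse HSCs the imprinting control region of H19 has been linked to stem cell quiescence through Igf2 and Igf1r.

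Sequences of the imprinted pairs, H19 with Igf2 and Airn with Igf2r, are shown first because probe sets named for all 4 genes were among those called below. H19 is the precursor of miR-675, and miR-483 lies within Igf2. Their mature sequences follow from the RefSeq table of build GRCm38.p6, with the seed (bases 2 to 8) in capitals. No 2 of the 4 shared a seed. The arrays read the long transcripts, so the amounts of these microRNAs are not known from these data.
mmu-miR-675-5p: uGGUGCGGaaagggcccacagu
mmu-miR-675-3p: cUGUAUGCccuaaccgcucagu
mmu-miR-483-5p: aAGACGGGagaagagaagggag
mmu-miR-483-3p: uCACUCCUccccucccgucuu

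Promoter windows of 300 bases, from 250 bases before to 50 bases after an annotated start, were found in the RefSeq table for 8 of the 10 genes, 12 windows in all, with none for H19 or Insr. Of these, 3 are printed here on the strand of the gene, in build GRCm38.p6: Igf2r at chr17:12769657-12769956 (minus strand), Airn at chr17:12741061-12741360 (plus strand) and the most 3′ of the 4 Igf2 windows at chr7:142657447-142657746 (minus strand). Capitals mark the motifs, each searched on both strands. The first was the E-box, spelled CACGTG. The second was the GC box that binds Sp1-type zinc finger proteins, spelled GGGCGG. The last was the TATA box, spelled TATAAA. Overlapping matches were counted separately.
Igf2r: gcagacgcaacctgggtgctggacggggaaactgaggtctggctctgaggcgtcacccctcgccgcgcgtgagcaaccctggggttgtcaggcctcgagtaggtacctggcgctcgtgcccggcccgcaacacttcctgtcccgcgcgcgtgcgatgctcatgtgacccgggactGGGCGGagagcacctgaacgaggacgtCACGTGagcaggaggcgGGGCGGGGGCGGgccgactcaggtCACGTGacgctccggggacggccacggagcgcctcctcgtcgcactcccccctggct
Airn: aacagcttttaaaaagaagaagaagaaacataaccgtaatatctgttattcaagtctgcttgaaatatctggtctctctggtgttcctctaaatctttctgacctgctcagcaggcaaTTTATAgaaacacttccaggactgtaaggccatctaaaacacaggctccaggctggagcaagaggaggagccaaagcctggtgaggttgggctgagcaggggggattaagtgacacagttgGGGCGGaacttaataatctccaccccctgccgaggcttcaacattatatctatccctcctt
Igf2: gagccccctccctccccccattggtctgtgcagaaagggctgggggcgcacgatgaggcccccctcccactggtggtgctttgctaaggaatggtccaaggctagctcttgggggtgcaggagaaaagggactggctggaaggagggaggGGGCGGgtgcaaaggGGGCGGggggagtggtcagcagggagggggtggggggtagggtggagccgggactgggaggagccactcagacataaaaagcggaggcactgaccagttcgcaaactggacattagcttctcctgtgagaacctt

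The Igf2r window held 2 E-boxes, 3 GC boxes and 34 CpG dinucleotides. The Airn window held 3 CpG dinucleotides, 1 GC box and 1 match to the TATA box letters, which reads on the strand opposite to Airn and begins 132 bases before its start. The Igf2 window held 2 GC boxes and 7 CpG dinucleotides. Of all 32851 windows of this length, 7.15% held the E-box, 35.7% the GC box and 13.6% the TATA box, and the median window held 7 CpG dinucleotides. The annotated starts of Airn and Igf2r lie 28395 bases apart on opposite strands, and Airn is transcribed across the start of Igf2r. The strand that each Airn or Igf2r probe set reads is not given in the sources used here, so unspliced RNA of one gene may enter a probe set named for the other.

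The level of Irgm1 was read first as a check of the labels. The only Irgm1 probe set read 7.68, 8.58 and 7.84 on the arrays labelled Irgm1-/-, against 8.39, 8.57 and 8.36 on the wild-type arrays, and the groups overlapped (limma log2 difference -0.41, SE 0.25, adjusted p = 0.475). Which part of the gene is missing is not stated in the labels, so this probe set checks nothing about the genotype, and the groups are called by their labels. All 10 stem cell markers on the array lay above the bacterial control probe sets on every array. Summed on the linear scale, they reached 20381 to 22976 on the Irgm1-/- arrays and 25213 to 28230 on the wild-type arrays, with no single marker called. Slamf1 differed the other way by 1.43, with groups that did not overlap (limma adjusted p = 0.145). T cell and NK cell markers, which a lineage stain is commonly used to remove, summed to 9545 to 20569 on the Irgm1-/- arrays and to 636 to 1104 on the wild-type arrays. Of these 14 markers 10 were tested, with 5 called higher and 0 lower, and 2, Ncr1 and Zap70, lay at or below the bacterial controls on every array. Lat differed the other way by -0.21 and was not called (limma adjusted p = 0.794). Without Ccl5, the brightest of them, the sums were 2575 to 8809 on the Irgm1-/- arrays and 475 to 790 on the wild-type arrays. Endothelial markers summed to 1619 to 1879 on the Irgm1-/- arrays and to 395 to 851 on the wild-type arrays, with 0 of 5 tested called. That gap was carried by Vwf, and without it the sums were 195 to 456 on the Irgm1-/- arrays and 191 to 224 on the wild-type arrays. Monocyte and macrophage markers summed to 2087 to 2921 on the Irgm1-/- arrays and to 1462 to 2098 on the wild-type arrays, with 2 of 8 tested called, both higher. Cd14, the brightest of them, differed the other way by -1.25 and was not called (limma adjusted p = 0.0518). Without Cd14 the sums no longer overlapped, at 1848 to 2547 on the Irgm1-/- arrays and 763 to 1316 on the wild-type arrays. Sums of neutrophil, B cell and erythroid markers overlapped between groups.

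Stromal markers summed to 598 to 1003 on the Irgm1-/- arrays and to 624 to 1316 on the wild-type arrays, and 6 of the 12 (Col1a1, Col3a1, Lepr, Dcn, Lum and Acta2) lay at or below the bacterial controls throughout. Without Bgn, the brightest of them, the sums no longer overlapped, at 157 to 224 on the Irgm1-/- arrays and 239 to 365 on the wild-type arrays. That gap was carried by the collagen gene Col1a2, the only 1 called of 5 tested. Col1a2 gave 4.86, 4.44 and 4.85 on the Irgm1-/- arrays, against 7.98, 7.88 and 6.94 on the wild-type arrays (difference -2.88, limma adjusted p = 0.00889). Bgn, Pdgfra and Pdgfrb differed by -0.35, -0.05 and -0.08 and were not called (limma adjusted p = 0.699, 0.915 and 0.808). Sparc, a matrix protein gene, differed the other way by 1.94 and was not called (limma adjusted p = 0.0638). The part of other cell types in the differences below was not tested. In bulk samples, fewer cells of a type and less RNA per cell cannot be told apart.

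In Irgm1-/- HSCs the single probe set of H19 was lower, as were 1 of 2 probe sets of Igf2, 1 of 2 of Igf2r, 1 of 5 of Airn and 1 of 5 of Igf1r. The calls of the last 4 genes were each lost when some single arrays were left out. Igf1, Grb10, Insr and Irs2 showed no called difference, and Irs1 was not above background. Of the 27 probe sets, 16 passed the filter on dim values, which asks for a value above the array's median on at least 3 of the 6 arrays. Limma called 5 of these 16 lower and 0 higher at an adjusted p under 0.05 over all 22580 probe sets tested. At an unadjusted p under 0.05, 8 were lower and 0 higher. The share of all tested probe sets under that unadjusted limit was not counted, so the 8 cannot be read as an excess. Over all tested probe sets 0.722% were called lower and 0.664% higher, 1.39% in all. The Irgm1-/- arrays lay wholly below the wild-type arrays for 7 of the 16, against 11% of all tested probe sets, and wholly above for 0 of the 16, against 11.5%. The median log2 difference of the 16 was -0.44, and that of all tested probe sets was 0.01. The 10 genes were chosen on the log2 differences of this same contrast, and 3 of the 5 called probe sets passed the filter only through the wild-type arrays, so these counts describe the genes and are not evidence about them. The adjusted p-values below are likewise given as the position of a probe set within the fit.

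**Figure D1:**
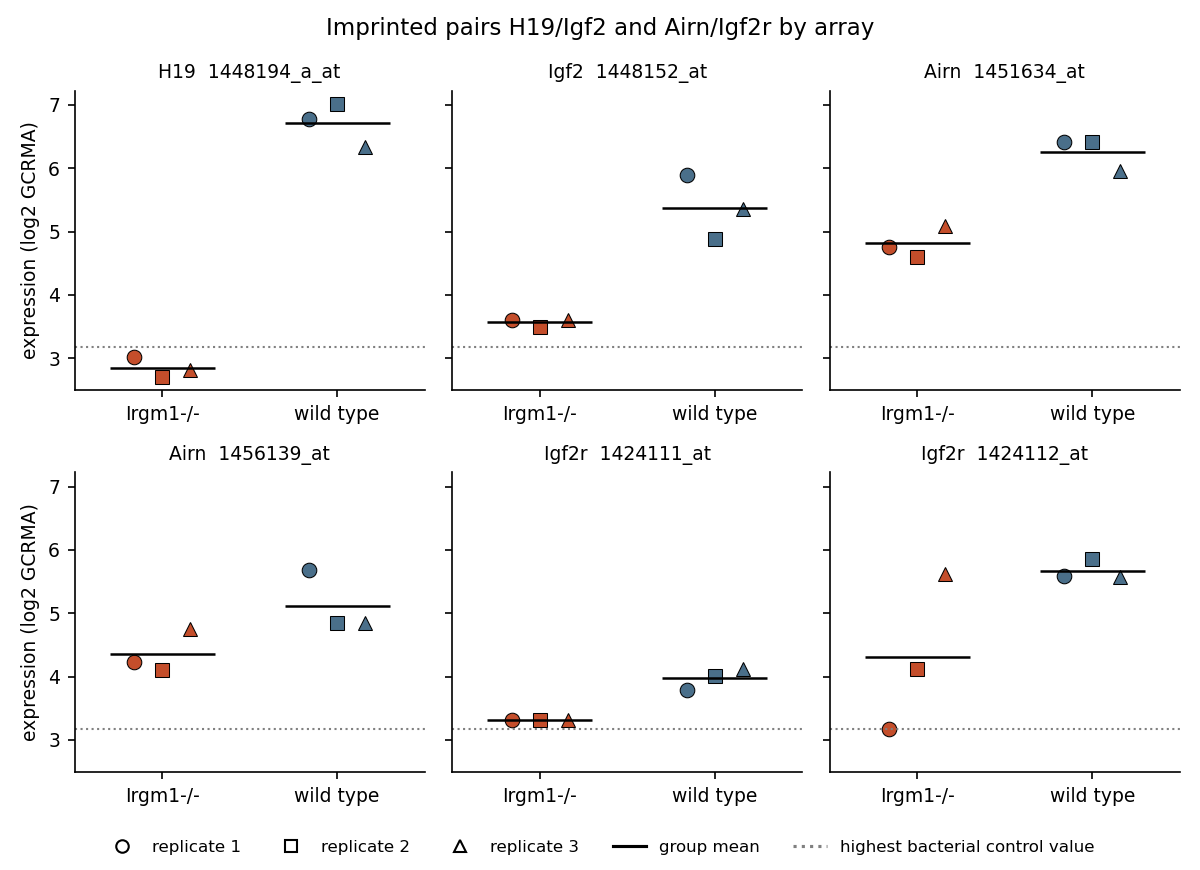
Log2 expression (vertical axis) of the tested probe sets of H19, Igf2, Airn and Igf2r on 3 Irgm1-/- arrays (left in each panel) and 3 wild-type arrays (right). Points are single arrays, bars are group means, and the dotted line is the highest value of the bacterial control probe sets on any array (3.18). The groups are apart in every panel except that of Igf2r probe set 1424112_at, where Irgm1-/- replicate 3 lies among the wild-type arrays.

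H19, a maternally expressed RNA that is abundant in the embryo, showed the largest difference among the 10 genes. Its probe set 1448194_a_at gave 3.02, 2.71 and 2.81 on the Irgm1-/- arrays, against 6.77, 7.01 and 6.34 on the wild-type arrays. All Irgm1-/- arrays lay at or below the highest bacterial control of the same array, so H19 was not above background there, and it was clearly above it on every wild-type array. The level in Irgm1-/- HSCs was at least 11.97-fold lower than in wild type. The bound sets the wild-type mean against the bacterial control value of each Irgm1-/- array. The measured log2 difference was -3.86 (SE 0.20, limma adjusted p = 0.000548), and it stayed past the threshold in all 15 alternatives that tested it.

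Igf2, the growth factor encoded beside H19, was lower as well, from a low wild-type level. Probe set 1448152_at gave 3.60, 3.50 and 3.60 on the Irgm1-/- arrays, against 5.90, 4.87 and 5.36 on the wild-type arrays. The Irgm1-/- values were close together, just above the bacterial controls and below each array's median, whereas the wild-type arrays were spread over more than a log2 unit. The difference was -1.81 (SE 0.24, limma adjusted p = 0.0221), a level 3.51-fold lower in Irgm1-/- HSCs. The call was lost without any 1 of the Irgm1-/- arrays or without wild-type replicate 3, with an adjusted p of up to 0.0948, while the difference ranged from -2.06 to -1.55. The second Igf2 probe set, 1415931_at, lay at or below the bacterial controls on all 6 arrays (2.80 to 2.90 on Irgm1-/- arrays and 2.76 to 2.84 on wild-type arrays) and was not tested. The Igf2 signal therefore rests on 1 of its 2 probe sets.

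Airn, the antisense RNA that starts within Igf2r, was called lower by 1 of its 5 probe sets. Probe set 1451634_at gave 4.76, 4.59 and 5.08 on the Irgm1-/- arrays, against 6.41, 6.42 and 5.96 on the wild-type arrays. The groups did not overlap, and the difference was -1.45 (SE 0.20, limma adjusted p = 0.0261), 2.73-fold lower in Irgm1-/- HSCs. Probe set 1456139_at gave 4.22, 4.11 and 4.75 on the Irgm1-/- arrays, against 5.68, 4.84 and 4.84 on the wild-type arrays. Here the groups were apart by a small margin, and the difference of -0.76 was not called (SE 0.28, limma adjusted p = 0.243). The call of 1451634_at was lost without Irgm1-/- replicate 1 or 2 or wild-type replicate 1 or 2, with an adjusted p of up to 0.114. The 3 other Airn probe sets stayed between 2.61 and 3.14 on every array, near or below the bacterial controls, and were not tested.

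Igf2r, the receptor that clears Igf2 and sorts lysosomal enzymes, had 2 probe sets, which differed in how the single arrays lay. Probe set 1424111_at gave 3.32, 3.32 and 3.31 on the Irgm1-/- arrays, against 3.79, 4.01 and 4.13 on the wild-type arrays. All 6 values were dim and the groups did not overlap, with a difference of -0.66 (SE 0.11, limma adjusted p = 0.0421). This is a level 1.58-fold lower in Irgm1-/- HSCs, and the call was lost without any 1 of the 6 arrays (adjusted p 0.0637 to 0.148). Probe set 1424112_at gave 3.17, 4.13 and 5.62 on the Irgm1-/- arrays, against 5.59, 5.86 and 5.58 on the wild-type arrays. Irgm1-/- replicate 3 stood at the wild-type level and replicate 1 near the bacterial controls, and the difference of -1.37 was not called (SE 0.54, limma adjusted p = 0.273). Without Irgm1-/- replicate 3 it was -2.02 and called (adjusted p = 0.0399). That array also had the highest sum of T and NK cell markers (20569, against 10325 and 9545 on the other Irgm1-/- arrays) and the widest actin gap, the 3′ minus the 5′ control probe set, (3.56 on the log2 scale, against 2.86 and 2.81). Its sum of endothelial markers without Vwf was the highest as well (456, against 202 and 195 on the other Irgm1-/- arrays). The part of these in the Igf2r value was not tested.

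**Figure D2:**
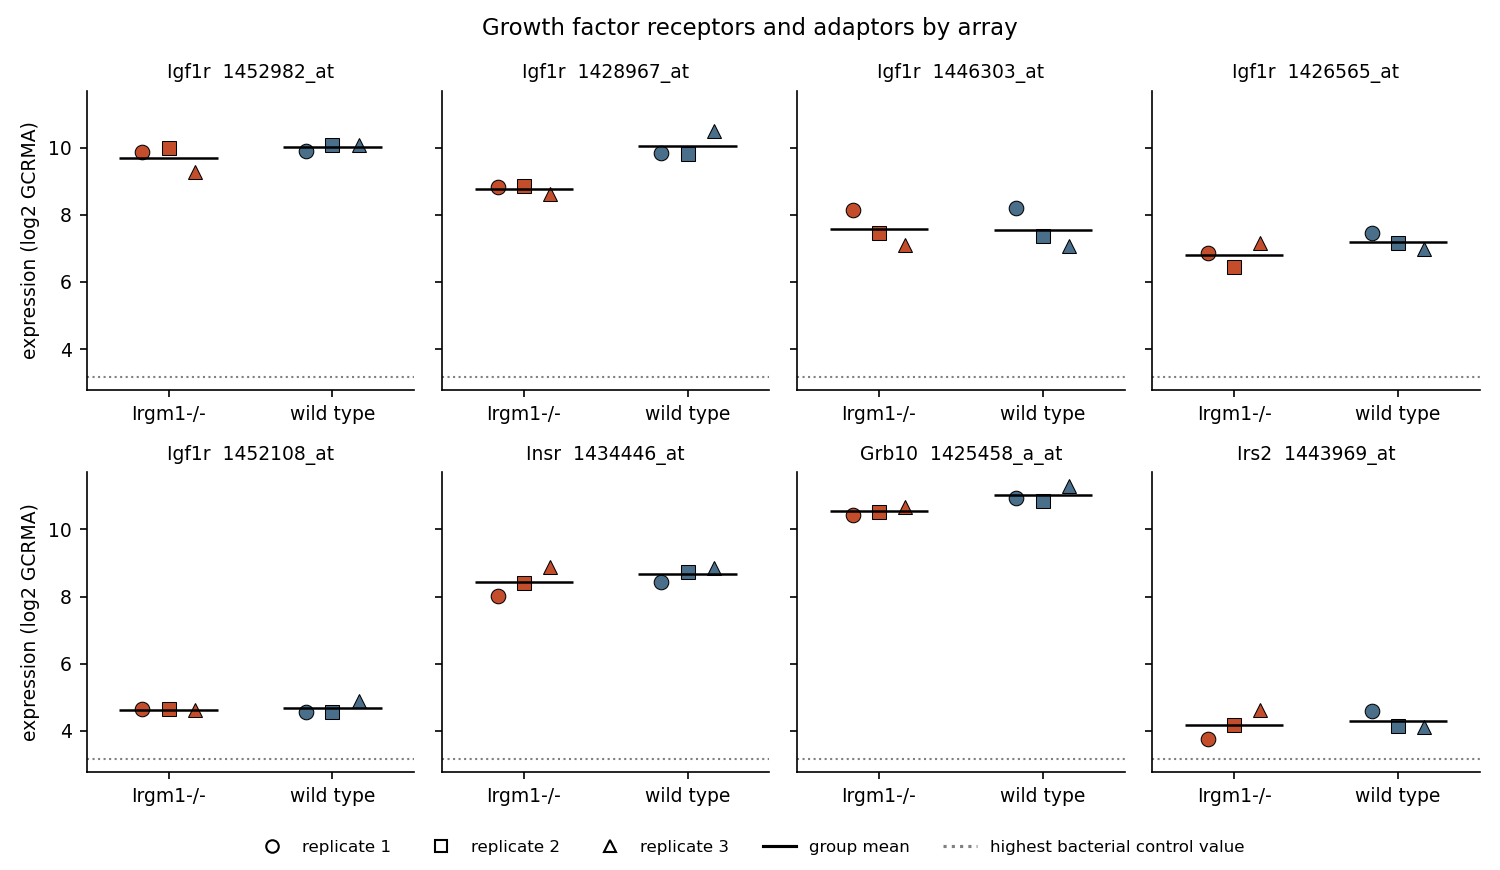
Log2 expression (vertical axis) of the 5 Igf1r probe sets and of the best detected probe sets of Insr, Grb10 and Irs2 on 3 Irgm1-/- arrays (left in each panel) and 3 wild-type arrays (right), with points for arrays, bars for group means and a dotted line at the highest bacterial control value. Igf1r probe set 1428967_at and Grb10 probe set 1425458_a_at show the Irgm1-/- arrays wholly below the wild-type arrays, and the other panels overlap.

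Igf1r, the kinase receptor through which both Igf1 and Igf2 act, was well detected by 4 of its 5 probe sets in both groups, but they disagreed. Probe set 1428967_at gave 8.84, 8.85 and 8.61 on the Irgm1-/- arrays, against 9.83, 9.80 and 10.50 on the wild-type arrays. The groups were about a log2 unit apart, with a difference of -1.28 (SE 0.22, limma adjusted p = 0.0448), 2.42-fold lower in Irgm1-/- HSCs. The call was lost without any 1 of the 6 arrays (adjusted p 0.0559 to 0.139). Of the called probe sets this one lay nearest to the threshold, and the nearest on the other side was Grb10 probe set 1425458_a_at (adjusted p = 0.199).

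Probe set 1452982_at, for which the platform table names the same source sequence, gave 9.88, 9.98 and 9.26 on the Irgm1-/- arrays, against 9.89, 10.08 and 10.09 on the wild-type arrays. Irgm1-/- replicate 3 was low there and the groups overlapped, and the difference was -0.32 with a 95% interval from -0.81 to 0.17 (limma adjusted p = 0.505). Within an array, 1428967_at minus 1452982_at came to -1.05, -1.12 and -0.65 on the Irgm1-/- arrays, against -0.06, -0.28 and 0.40 on the wild-type arrays. These within-array differences did not overlap between the groups, a comparison that was chosen after the values were seen and was not tested. The 3 other Igf1r probe sets, 1446303_at, 1426565_at and 1452108_at, differed by 0.02, -0.38 and -0.03, with overlapping groups and limma adjusted p-values of 0.985, 0.473 and 0.93.

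Igf1, the ligand that liver and stromal cells supply after birth, was at a low level. Its tested probe set 1452014_a_at gave 4.08, 4.19 and 4.50 on the Irgm1-/- arrays, against 4.40, 4.13 and 3.82 on the wild-type arrays. The groups overlapped, with a difference of 0.14 and a 95% interval from -0.28 to 0.57 (limma adjusted p = 0.749). The 3 other Igf1 probe sets lay between 2.73 and 3.73 on the Irgm1-/- arrays and between 2.72 and 4.79 on the wild-type arrays. Their groups overlapped, and they did not pass the filter.

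Grb10, an imprinted adaptor that binds the activated insulin and Igf1 receptors and dampens their signal, was strongly detected. Probe set 1425458_a_at gave 10.43, 10.53 and 10.66 on the Irgm1-/- arrays, against 10.93, 10.85 and 11.30 on the wild-type arrays. The Irgm1-/- arrays lay wholly below the wild-type arrays, but the difference of -0.49 was not called (SE 0.16, limma adjusted p = 0.199, 95% interval -0.85 to -0.12). Probe set 1430164_a_at gave 7.15, 6.57 and 6.92 on the Irgm1-/- arrays, against 7.36, 7.04 and 6.57 on the wild-type arrays. These groups overlapped (difference -0.11, limma adjusted p = 0.873), and the third Grb10 probe set, 1425457_a_at, lay at or below the bacterial controls throughout.

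The insulin receptor and its docking proteins showed no called difference. Insr probe set 1434446_at gave 8.02, 8.42 and 8.88 on the Irgm1-/- arrays, against 8.45, 8.73 and 8.86 on the wild-type arrays. The groups overlapped (difference -0.24, 95% interval -0.81 to 0.34, limma adjusted p = 0.681), and the 2 other Insr probe sets were at or below the bacterial controls on all arrays. Irs2, the docking protein that links both receptors to phosphoinositide 3-kinase, gave 3.75, 4.17 and 4.63 on the Irgm1-/- arrays, against 4.59, 4.16 and 4.13 on the wild-type arrays. Its difference was -0.11 (95% interval -0.66 to 0.45, limma adjusted p = 0.864). The single Irs1 probe set lay between 1.79 and 1.86 on all arrays, below the bacterial controls, so no level of Irs1 can be given. Intervals that reach from well below 0 to above it do not show that these genes were equal in the 2 groups.

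**Figure D3:**
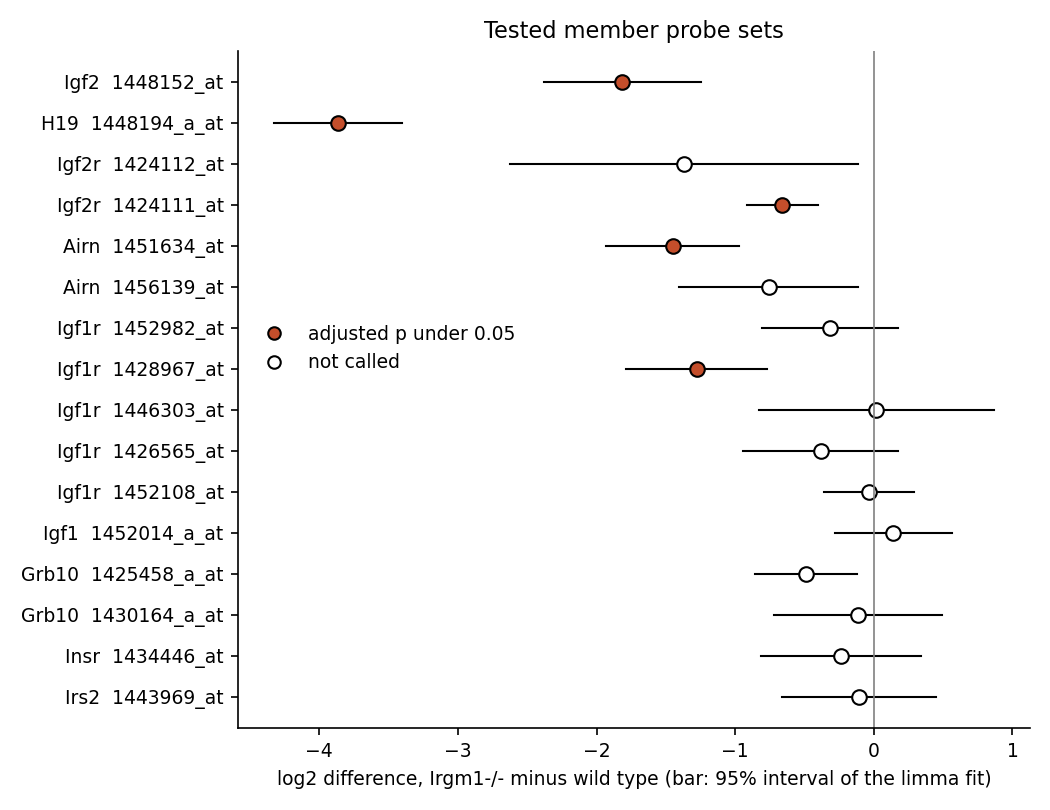
Log2 difference, Irgm1-/- minus wild type, of the 16 tested probe sets (horizontal axis), with bars for the 95% interval of the limma fit and filled points for an adjusted p under 0.05. The 5 filled points, of Igf2, H19, Igf2r, Airn and Igf1r, all lie left of 0, and 14 of the 16 differences are negative.

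The genes around the pathway were then read from 6 lists, with 1 probe set for each gene. Of 77 listed genes tested, limma called 0 higher and 5 lower, 4 of them other imprinted genes. At an unadjusted p under 0.05 there were 3 higher and 17 lower. A limma unadjusted p of 0.0480 (M6pr) stood at an adjusted p of 0.301, so many probe sets lay under the unadjusted limit. The share of all tested genes under it was not counted, so unadjusted counts here and in each list below cannot be read as an excess. Over all 10374 genes tested, 1.08% were called higher and 0.954% lower, 2.03% in all, with a median difference of 0.003. Only 3 of 16 IGF-binding proteins and their regulators passed the filter, and none was called (0 higher and 0 lower at an unadjusted p under 0.05). Igfbp4, which holds IGFs away from their receptor, was strongly detected and lay at 12.01 ± 0.53 in Irgm1-/- HSCs and at 11.92 ± 0.33 in wild type (SD, n = 3 each; limma adjusted p = 0.909). Igfbp7 gave 5.95, 5.02 and 7.95 on the Irgm1-/- arrays, against 5.27, 4.96 and 5.45 on the wild-type arrays. Irgm1-/- replicate 3 stood far above the other arrays (difference 1.08, limma adjusted p = 0.464, and 0.26 without that array). Htra1, a secreted protease that cuts IGF-binding proteins, differed by -0.44 (limma adjusted p = 0.335).

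Of 36 tested genes of insulin and IGF receptor signalling, 0 were called higher and 1 lower, with 2 higher and 8 lower at an unadjusted p under 0.05 and a median difference of -0.04. The one called was Gab1, a docking adaptor that recruits phosphoinositide 3-kinase and the phosphatase Shp2 to receptor kinases. It gave 7.76, 7.73 and 7.96 on the Irgm1-/- arrays, against 8.74, 8.78 and 8.67 on the wild-type arrays. The groups were tight and well apart (difference -0.92, SE 0.15, limma adjusted p = 0.0437), yet the call was lost without any 1 array (adjusted p 0.0515 to 0.159). The 1 other tested Gab1 probe set was not called. The adaptors Sh2b2 and Shc1 differed by -0.92 and -0.70 and Gigyf2, a partner of Grb10, by 0.50 (limma adjusted p = 0.174, 0.201 and 0.222).

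The lysosomal sorting route that Igf2r serves showed 0 called genes among 16 tested (0 higher and 2 lower at an unadjusted p under 0.05, median difference -0.04). M6pr, the smaller mannose 6-phosphate receptor, lay at 11.79 ± 0.18 in Irgm1-/- HSCs and at 12.08 ± 0.03 in wild type (SD, n = 3 each; limma adjusted p = 0.301). The protease Ctsl, a cargo of this route, differed by -0.41, the tagging enzyme Gnptab by 0.41 and the retromer subunit Vps29 by 0.21 (limma adjusted p = 0.217, 0.328 and 0.424).

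Among 12 tested genes of the list of other imprinted growth genes, 4 were called lower and 0 higher, with 6 lower and 0 higher at an unadjusted p under 0.05 and a median difference of -0.45. The list was written with earlier results on some of its genes known, and Peg3 and Rian passed the filter only through the wild-type arrays. These counts and adjusted p-values therefore describe the genes and are not evidence about them. Peg3, a zinc finger gene expressed from the paternal allele, gave 2.81, 2.92 and 3.06 on the Irgm1-/- arrays, against 6.17, 6.88 and 5.05 on the wild-type arrays. It was not above the bacterial controls on any Irgm1-/- array, which makes it at least 7.48-fold lower there (measured difference -3.10, SE 0.41, limma adjusted p = 0.0208). The call was lost without Irgm1-/- replicate 1 or 2 or wild-type replicate 1 or 2 (adjusted p up to 0.0969). Rian, a maternally expressed RNA, was at or below the bacterial controls on every Irgm1-/- array and at least 6.36-fold lower there (limma adjusted p = 0.000548). The 1 other tested Rian probe set was not called. The maternally expressed RNA Meg3 and the paternally expressed Ndn differed by -5.73 and -2.95 (limma adjusted p = 0.000914 and 0.00533). Of their other tested probe sets, 4 of 6 for Meg3 and 4 of 4 for Ndn were also called lower. Genes known for expression from the maternal chromosome (H19, Meg3, Rian) and from the paternal one (Igf2, Peg3, Ndn) were thus both among those called lower.

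**Figure D4:**
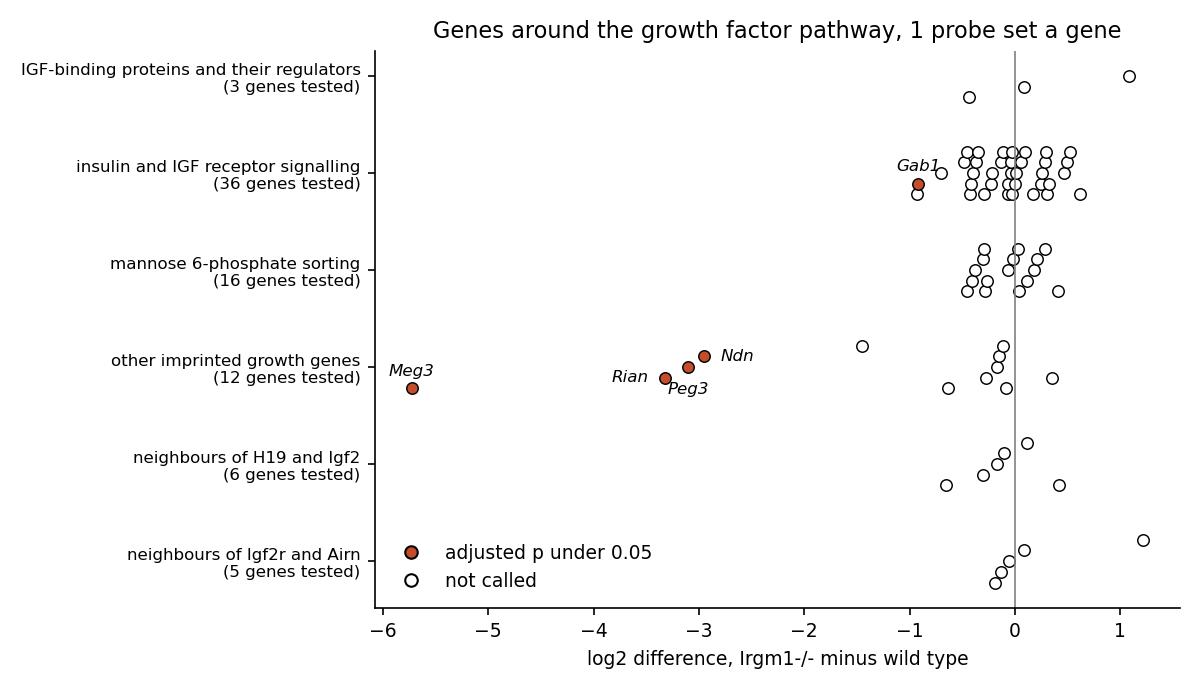
Log2 difference, Irgm1-/- minus wild type (horizontal axis), of each tested gene of the 6 lists, 1 probe set a gene. Filled, named points had an adjusted p under 0.05, and they are Gab1 and the imprinted genes Meg3, Rian, Peg3 and Ndn, all lower in Irgm1-/- HSCs.

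The genes that flank the imprinted pairs were not called. Of 6 tested neighbours of H19 and Igf2, 0 were called (0 higher and 1 lower at an unadjusted p under 0.05). Cd81, a tetraspanin gene among these neighbours, gave 12.13, 12.46 and 12.47 on the Irgm1-/- arrays, against 13.00, 13.03 and 12.99 on the wild-type arrays. The groups did not overlap, and the difference of -0.65 lay just outside the threshold (SE 0.12, limma adjusted p = 0.0529). It was called under 4 alternatives, and its adjusted p ranged from 0.0240 to 0.175 over all 16. Mrpl23, Tspan32 and Tssc4 differed by -0.30, 0.42 and -0.10 (limma adjusted p = 0.342, 0.53 and 0.808). Of 5 tested neighbours of Igf2r and Airn, 0 were called (1 higher and 0 lower at an unadjusted p under 0.05). Mrpl18, a mitochondrial ribosomal protein gene, differed by 1.22 (SE 0.33, limma adjusted p = 0.143), and Sod2, Tcp1 and Mas1 by -0.19, -0.13 and 0.08.

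The genes most like Igf2 and H19 over the 6 arrays were found by Pearson correlation of log2 values among tested genes. For H19 they were Col1a2 (probe set 1423110_at, r = 0.997), Htra3 (r = 0.995) and Bace2 (r = 0.994). For Igf2 they were Reep3 (r = 0.998), Trappc6b (r = 0.995) and Sft2d2 (r = 0.987). The 6 arrays form 2 groups that lie apart in each of these genes, so the correlations largely restate that gap, and they are a description. Col1a2 gave 3.29, 3.26 and 3.15 on the Irgm1-/- arrays, against 4.66, 4.66 and 4.39 on the wild-type arrays (difference -1.34, limma adjusted p = 0.00426). Another Col1a2 probe set is given among the stromal markers. Reep3 gave 7.34, 7.31 and 7.41 on the Irgm1-/- arrays, against 8.20, 7.80 and 7.98 on the wild-type arrays. It followed the order of Igf2 among the wild-type arrays, and its difference of -0.64 was not called (limma adjusted p = 0.144).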

How the data were processed

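The authors deposited 1 value per probe set and array. GCRMA is the tool that the submitters' processing notes name, with no version or setting, and that these deposited values are on the log2 scale follows from their range. GCRMA corrects background by probe sequence, which leaves silent probe sets in a narrow low band. Amplification in 2 rounds favours 3′ ends. The 6 arrays had medians of 3.67 to 3.73. No genome build is named for the arrays, so coordinates are given only for RefSeq sequence windows.

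Differences, Irgm1-/- minus wild type, were fitted in R 4.3.3 by limma 3.58.1 (lmFit, eBayes with trend, 2-sided, no covariate), with Benjamini-Hochberg adjustment over 22580 probe sets, and an adjusted p under 0.05 was called. The filter took probe sets above the array median on at least 3 of 6 arrays. Background was the highest value of 27 bacterial control probe sets on an array (3.00 to 3.18). A listed gene was read from its tested probe set of highest mean. Named were all 10 genes, up to 6 called or the 4 genes of smallest p of each list, and the 3 genes most correlated with Igf2 and with H19. Of 132 listed genes, 118 had a probe set with 1 symbol and 77 were tested. The genes and lists were chosen with earlier results of these data known. The fit was run on simulated data with independent normal noise, which checks the code and not the calls made here. Nothing in the labels says that the arrays of a group came from separate animals, so p-values measure the spread between these arrays, and their number limits the precision.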

Additional observations from a re-analysis of the deposited data

How the results depend on the processing

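H19 kept its call in all 15 alternatives that tested it (adjusted p 0.000131 to 0.0125), and no called probe set of the 10 genes changed direction in any alternative run. The filter at the 70th percentile left H19, Igf2, Igf2r and Airn untested. The filter settings changed which probe sets of the 10 genes were tested, and leaving out single arrays kept the 16. Of those tested, 1 was called lower with no filter on dim probe sets, 2 when the filter was the 25th percentile and 1 when it was the 70th. When single arrays were left out, 1 to 3 were called lower. Listed genes called lower numbered 3 with no filter and 2 to 4 without single arrays. Over all probe sets, 150 were higher and 163 lower. There were 49 higher and 54 lower with no filter, 62 and 64 at the 25th percentile, 401 and 463 with array weights, 252 and 263 with the actin gap as covariate, and 314 and 315 at an adjusted p under 0.1. Without single arrays there were 17 to 138 higher and 28 to 129 lower. Leaving out an array also leaves fewer samples, and the cause of the other shifts was not tested.

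The replicate numbers were tried as a block. The deviations of same-numbered arrays from their group means correlated at -0.11, -0.02 and -0.28, and those of differently numbered arrays at -0.20 to 0.24. These few values cannot show whether same-numbered arrays shared a batch. With the block 27 probe sets were higher and 41 lower, 1 of the 16 was lower (H19), and 3 listed genes were lower.

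Some uncalled differences changed sign. Igf1r 1446303_at was at -0.0067 with median centring and -0.26 to 0.34 without single arrays. Igf1r 1452108_at was at 0.029 with array weights and -0.092 to 0.075 without single arrays. Without single arrays, Igf1 1452014_a_at ranged from -0.0054 to 0.28, Grb10 1430164_a_at from -0.32 to 0.074 and Irs2 from -0.33 to 0.11. Igfbp4 was at -0.18 with array weights, -0.045 with the actin gap, and -0.22 to 0.26 without single arrays.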
